A study of Rattus norvegicus with 30 samples.

Results

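The acetylated domains of histone H4 lysine 16 (H4K16Ac) were set against the regions of histone H3 lysine 4 trimethylation (H3K4me3) in the cortex of control rat embryos at E14.5. The members were the 6 control libraries of these 2 antibodies, of 30 libraries in the whole series, and were taken by their antibody and diet labels. The tissue was the frontal cortex of Wistar rat embryos whose dams ate normal chow (Control). The dams of the other group ate a commercial high-fat diet (HFD) before and during pregnancy, and per the study's methods the cortices of a whole litter were pooled for a sample. Chromatin was crosslinked, sonicated and precipitated with an antibody before sequencing. For each antibody and diet the authors deposited 1 peak list for 3 libraries together, so the spread between libraries is unknown and no test was run. The confidence intervals (95% CI, Wilson for shares and binomial ranks for medians) cover counting error only, since regions of 1 genome in pooled libraries are not independent samples.

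H4K16Ac is laid down mainly by the acetyltransferase MOF (KAT8). It neutralises a charge on the H4 tail and loosens the packing of neighbouring nucleosomes, and it is found at promoters, enhancers and along some transcribed genes. H3K4me3 is written by SET1 and MLL complexes and marks the nucleosomes flanking the start sites of active and poised genes. Its regions are therefore often used as landmarks for promoters. Whether the regions listed here lay at start sites was not tested. The cortex at this stage holds dividing progenitors and young neurons, and a list made from whole tissue cannot tell whether both marks stood in the same cells.

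The control lists held 173786 H4K16Ac domains, which are broad peaks, and 113056 H3K4me3 intervals, which are narrow peaks counted once each. A narrow peak also has a summit, the base of highest pileup, and where an interval was listed with several summits the strongest was used. Both lists were lenient, since the highest q they hold is 0.499 for H3K4me3 and 0.497 for H4K16Ac. The most frequent fold enrichment (ratio of pileup to background) and its p imply a background of 1.23 fragments per base for H3K4me3. For H4K16Ac, whose values are averages over a domain, they gave 1.61. Antibodies against pan H4 and total H3 gave the comparison with histone as such, with 196878 and 169297 intervals. Of the 3 libraries behind the control total H3 list, 1 carries labels of both diets and cannot be taken out of it. Coordinates are those of the rat build rn6, counted from 1, and the genes at these positions were not used here.

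Most H3K4me3 intervals met an acetylated domain, while these domains were split almost evenly between those with and those without H3K4me3. An H4K16Ac domain overlapped 93646 of the 113056 intervals by at least 1 bp, which is 82.8% (95% CI 82.6 to 83.1). Such intervals are called acetylated below. At the H3K4me3 summit a listed region was present for 80.2% of intervals for H4K16Ac, 73.2% for pan H4 and 69.1% for total H3. How far the overlap goes beyond that of histone as such was not tested. Seen from the other mark, 86003 of the 173786 domains, or 49.5% (95% CI 49.3 to 49.7), met an H3K4me3 interval. The other 87783 domains met none. Of the domains with H3K4me3, 78915 held 1 interval, 6579 held 2, 464 held 3 and 45 held more. No interval met a second domain, which allows a share of up to 0.0034%, and no pair of neighbouring domains in the list lay closer than 1194 bp. Per chromosome, over 1 to 20 and X, the share of domains with H3K4me3 ran from 47.2% on chromosome 17 to 52.4% on chromosome X. Y is left out of that range.

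In bases, the domains covered 196.1 Mb and the H3K4me3 intervals 67.1 Mb. Of the H3K4me3 bases, 80.5% were acetylated. The domains with H3K4me3 covered 120.2 Mb, and 66.2 Mb of these, or 55.1%, lay outside every interval. The domains without H3K4me3 added 75.9 Mb, which is 38.7% of all acetylated bases. Over chromosomes 1 to 20 and X, the part of domains with H3K4me3 that lay outside the intervals was lowest on X (40.3%) and highest on chromosome 12 (62.7%). The share outside depended on the threshold of the lists, and with a −log10 q of at least 5 in both it was 26.3%.

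The acetylated intervals were the stronger ones. Their median width was 511 bp, against 364 bp for the 19410 intervals without a domain, and their median fold enrichment at the summit, the ratio of pileup to local background, was 3.68 against 2.69. A −log10 q of 5 or more was listed for 32.8% of the acetylated intervals and for 1.65% of the others. When all intervals were ordered by the −log10 p of their summit and divided into 10 groups of equal size, 51.2% of the weakest group met a domain. The share was 85.7% in group 5 and 99.9% in the strongest group, group 10. The share of intervals met by other lists rose as well. From group 1 to group 10 it went from 43.7% to 99.98% for pan H4 and from 35.8% to 99.91% for total H3. For H3K27me3, the mark of Polycomb repression, it went from 9.41% to 99.94%. Pan H4 intervals lay over 87.0% of the acetylated intervals and 28.1% of the others, and total H3 over 84.4% and 15.7%. H3K27me3 lay over 47.6% and 6.09%. The lists of histone as such and of H3K27me3 thus moved with the result, and their part in it was not tested.

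The 3 strongest intervals without a domain were all listed again as H3K4me3 in HFD. The first, at chr13:89404475-89405216, had a −log10 p of 73.3, and neither the control nor the HFD list held an H4K16Ac domain there. A pan H4 interval covered 371 of its 742 bp, and H3K27me3 covered 66.4% of it. The second, chr16:26642052-26642605 with a −log10 p of 45.0, was without a domain in control but had 87.2% of its length in an HFD domain of 483 bp. The third, chr2:55921222-55921527 with a −log10 p of 42.3, had 90.5% of its length in an HFD domain of 320 bp. The absence of a control domain in these last cases is therefore an absence from 1 list.

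The reach of a domain was measured from the edge of the H3K4me3 interval to the edge of the domain on the same side, for the 90649 intervals whose summit lay in a domain. It was short in most cases and long in a few. The domain ended beyond both edges of the interval in 48200 cases (53.2%), beyond a single edge in 35951 (39.7%) and beyond neither in 6498 (7.17%). Over both sides pooled, a side on which the domain ended inside the interval being set to 0, the median reach was 88 bp (95% CI 87 to 89), the upper quartile 653 bp and the 90th percentile 1519 bp. With a −log10 q of at least 5 in both lists the median reach was 27 bp. The reach was 500 bp or more on 27.6% of the 181298 sides, 1000 bp or more on 18.4%, 2000 bp or more on 6.07% and 5000 bp or more on 520 sides, or 0.287%. The reach to lower and to higher coordinates had medians of 88 and 87 bp and upper quartiles of 660 and 646 bp, so the directions of the chromosome differed little. The strand of the genes was not used here.

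When the sides of each interval were sorted by length, the longer reach had a median of 339 bp and the shorter one of 8 bp, around a domain of 1165 bp and an interval of 514 bp in the median. Sorting alone sets the longer above the shorter, so these medians describe the spread and are no sign that the sides differed in kind.

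Where the summit lay in a domain, the reach was larger around weak H3K4me3 than around the strongest, where it was near 0. That held for 4993 of the 11306 intervals of the weakest group and for 11297 of 11306 in the strongest. A wide domain is more likely to hold a summit, so the weak intervals counted may favour wide domains, which was not tested. In the weakest group of intervals the domain edge lay a median of 199 bp beyond the interval edge, with quartiles of 32 and 997.75 bp. In group 3 it was almost the same, at 198 bp, with an upper quartile of 1147 bp. In group 5 the median was 122 bp, in group 9 it was 49 bp, and in the strongest group it was 0 bp, with quartiles of −60 and 70 bp, negative values being edges inside the interval. The median widths of the domains had no steady order, with 1322 bp in group 1, 1515 bp in group 3, 989.5 bp in group 4 and 1168 bp in group 10. The interval widths went from 377 to 1069 bp. In the strongest group the domain was thus about as wide as the interval, with a median ratio of widths of 1.01, and 24.1% of these domains ended beyond both edges, 49.9% beyond a single edge and 26.0% beyond neither. A side of 1000 bp or more was found on 24.9% of the sides of the weakest group, 28.5% in group 3, 18.7% in group 4 and 6.93% in the strongest group.

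**Figure D1:**
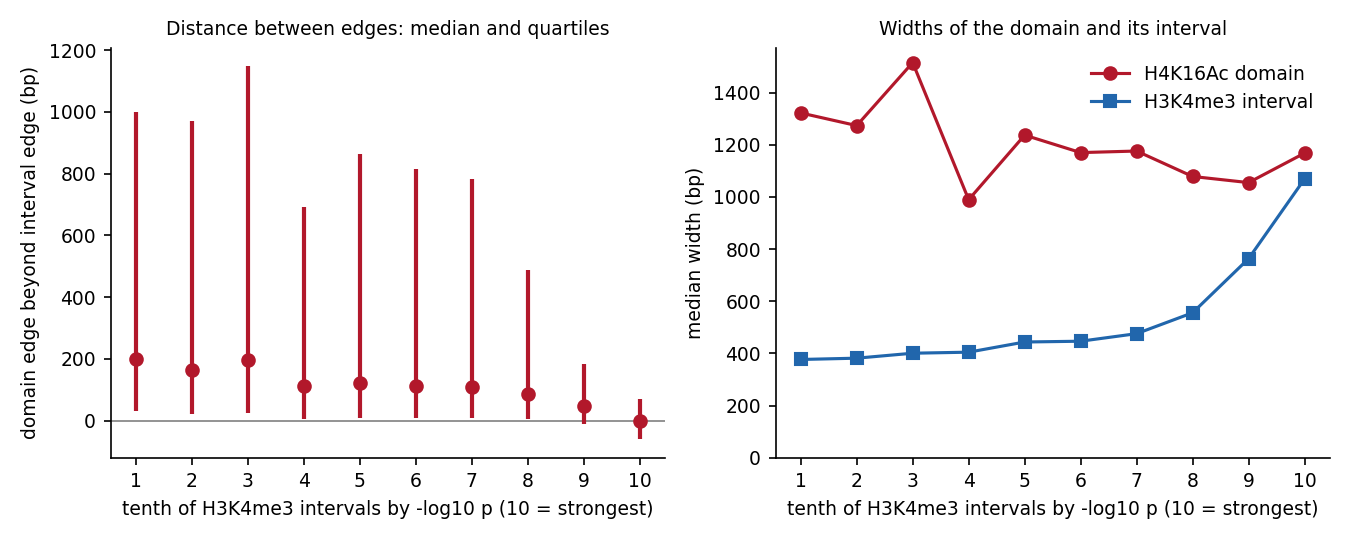
Left, signed distance in bp by which the edge of the control H4K16Ac domain lies beyond the edge of the H3K4me3 interval (points, medians over both sides; bars, quartiles), for 10 groups of intervals ordered by −log10 p. Right, median widths in bp of the domains (circles) and intervals (squares). Only intervals with their summit in a domain are counted, 4993 in group 1 and 11297 in group 10. The distance goes from 199 bp in group 1 to 0 bp in group 10, where the widths meet at 1168 and 1069 bp.

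The HFD list was alike at both ends. Around the same control intervals, HFD domains passed the interval edge by a median of 187 bp in the weakest group and ended 12 bp inside it (−12 bp) in the strongest, where 31.8% of them ended beyond neither edge. The histone lists differed in the same direction. The median signed distance was 68 bp for pan H4 and 55 bp for total H3 around the weakest intervals, and −5 and −33 bp around the strongest. These are narrow peaks, which the caller does not join into domains. Sides of 1000 bp or more were rare in them even around the weakest intervals, at 1.22% for pan H4 and 0.649% for total H3, against 24.9% for H4K16Ac. H3K27me3, the other broad list, had such sides on 9.55%, but only 764 of the weakest intervals had their summit in one of its regions.

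The longest reach in the genome belonged to a weak interval. At chr10:45372482-45372788, an H3K4me3 interval of 307 bp with a fold enrichment of 2.88, the domain went 739 bp to lower and 14722 bp to higher coordinates. The second longest, 11687 bp, started from an interval of 350 bp at chr20:7149944-7150293, and 920 bp of the same domain lay on its other side. The third, 11153 bp, lay on the lower side of an interval at chr19:55721356-55721814, and on the higher side the domain ended inside that interval. All 3 domains held further H3K4me3, and their intervals together covered 6.94%, 5.73% and 11.8% of the domain. The HFD list held 3, 2 and 3 pieces where control had each of these domains, together covering 73.4%, 84.9% and 59.7% of it.

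The intervals with the highest −log10 p stood on a high local background. The first, chr4:77447693-77448711, had a −log10 p of 3993 with a fold enrichment of only 12.5, which together imply a pileup of 5724 fragments over a local background of 458. Its domain of 2354 bp went 1348 bp beyond the interval on one side and ended 13 bp inside it (−13 bp) on the other. The second, chr1:180645721-180646405, lay over a background of 195 and in a domain of 1892 bp that passed it by 1173 and 34 bp. The third, chr9:12093704-12094596, lay over a background of 77.4, and its domain of 831 bp passed it by 27 bp on one side and fell short by 89 bp (−89 bp) on the other. All 3 backgrounds were far above the 1.23 fragments implied by the most frequent fold enrichment of the list. Pan H4, total H3 and H3K27me3 had regions over all 3 sites. The sites were named by the rule and are no measure of promoters in general.

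The extent around the summit was then read without reference to edges, as the share of intervals with a domain at a given distance from the summit. At the summit itself it was 80.2% of all intervals, 44.2% of the weakest group and 99.9% of the strongest. At 500 bp it was 36.9%, 24.3% and 53.8%, as the mean of both sides, and at 1000 bp it was 21.8%, 17.9% and 17.4%. At 1000 bp the strongest group was thus no longer above the weakest. On average over the intervals the sides were nearly even. The greatest difference between the sides at one distance was 1.11 percentage points over all intervals, at 250 bp, and 0.737 points in the strongest group. In the weakest group it was 5.79 points at 250 bp. Around the same summits it was 7.37 points for pan H4, 6.42 for total H3 and 5.22 for H4K16Ac in HFD, also at 250 bp.

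Between the summit and 5 kb the coverage dipped below its level far away, and most around the strongest intervals. There it was lowest at 2750 bp, with 5.13%, against 8.23% at 5000 bp, 14.0% at 10000 bp and 13.8% at 100000 bp. Over all intervals it was lowest at 3750 bp, with 10.3% against 12.3% at 100000 bp. The dip was found in every list examined around the strongest intervals, at 5.30% for H4K16Ac in HFD, 1.83% for pan H4 and 2.08% for total H3, against 12.9%, 7.40% and 6.51% at 100000 bp. It moved with the local background that the caller sets from the reads around each position. At pan H4 summits that lay 1 to 2 kb from a summit of the strongest H3K4me3 group the implied background was 8.78 fragments in the median, and at 4 to 5 kb it was 6.83. At 5 to 6 kb it was 3.34 and at 6 to 8 kb 2.77. Around the weakest group it was 2.59 at 1 to 2 kb and 2.77 at 5 to 6 kb. The pileup at these summits was 27 fragments in the median at 1 to 2 kb and 13 at 6 to 8 kb, so that a listed peak close to strong H3K4me3 stood on more reads. The background at single positions could not be solved in this way for the H4K16Ac list itself, whose values are averages over domains. Its part in the dip of H4K16Ac coverage was thus not tested. The domain edges beside strong intervals lie in the same zone, and the part of the background in their short reach was not tested either.

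**Figure D2:**
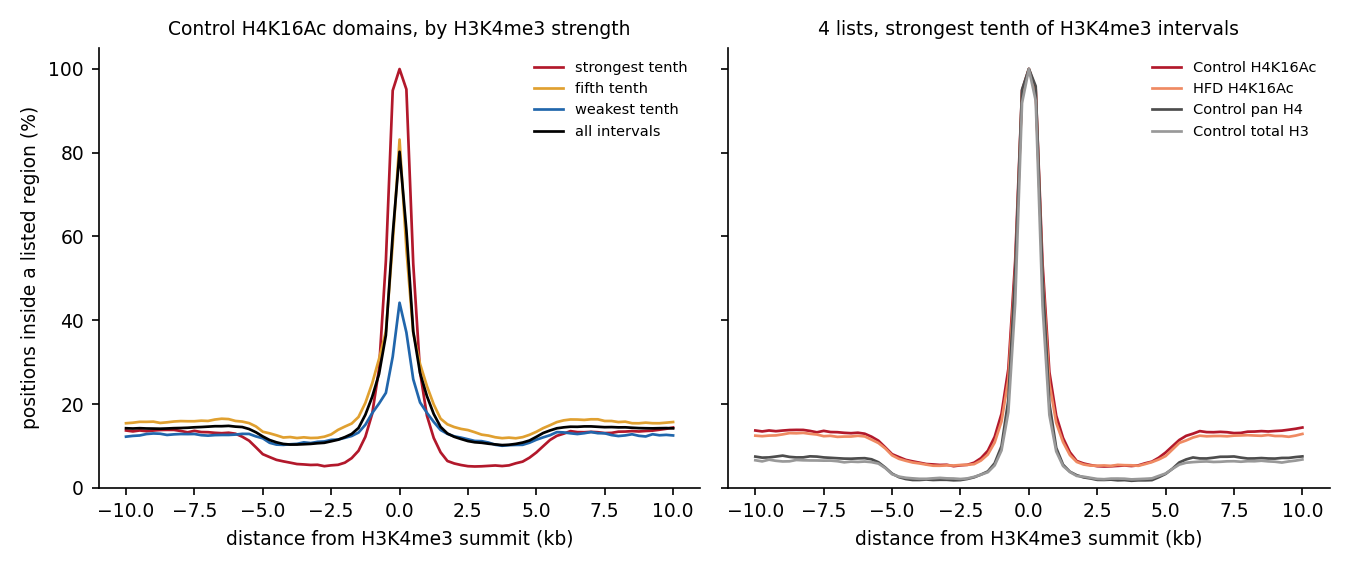
Share (%) of H3K4me3 intervals with a listed region at each distance (kb) from the H3K4me3 summit, in steps of 250 bp. Left, control H4K16Ac domains for all intervals and for groups 1, 5 and 10 by strength. Right, H4K16Ac in control and HFD, pan H4 and total H3 around the strongest group. Each curve falls on both sides of the summit to a low shelf, which around the strongest group is 5.13% for control H4K16Ac, and steps up near 5 kb.

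Symmetry was examined in the 83504 domains that held a summit, by the strongest summit of each. The arm was the distance from that summit to the edge of the domain. Neither side of the chromosome was longer by much. The arms toward lower and higher coordinates had medians of 420 and 433 bp over the summits, and the higher side was the longer in 50.7% of domains (95% CI 50.4 to 51.0). The longer arm took a median of 68.7% of the domain (95% CI 68.5 to 68.9, quartiles 58.5 and 81.9). In 45518 domains, or 54.5%, it took 66.7% or more, that is, it was at least 2 times as long as the other arm. The longer arm is at least 50% of a domain by its definition, and summits spread evenly along their domains would give a median of 75% and a share of 66.7% of domains past that limit. The summits were thus nearer to the middle than an even spread. In HFD lists the median was 68.5%.

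The position of the summit in the domain went with the width of the domain. Under an even spread the middle one of 5 equal parts would hold 20% of summits and the 2 outermost parts 40%. In the domains with exactly 1 interval, the summit lay in the middle part in 46.1% of domains under 500 bp and in 40.1% of those from 500 to 1000 bp. From 1000 to 2000 bp this share was 18.8%. The 2 outermost parts together held the summit in 10.2%, 10.9% and 37.1% of these classes, and in 50.5% (95% CI 49.5 to 51.6) of domains from 2000 to 3000 bp. In domains of 3000 to 5000 bp they held 47.8%, and in the 560 domains of 5000 bp or more 41.3% (95% CI 37.2 to 45.4). Among domains of 2000 to 3000 bp the outermost part on the lower side and that on the higher side held the summit about equally often. The narrow domains were hardly wider than their intervals, with median intervals of 383 bp under 500 bp and 569 bp from 500 to 1000 bp, which leaves little room for a summit far from the middle. Only the classes from 2000 to 5000 bp had CIs above 40%, and the widest class did not differ from an even spread beyond its CI. At 2000 to 3000 bp the longer reach had a median of 1467.5 bp and the shorter of 74 bp. The longer arm took 66.7% or more of the domain in 73.1% of them.

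**Figure D3:**
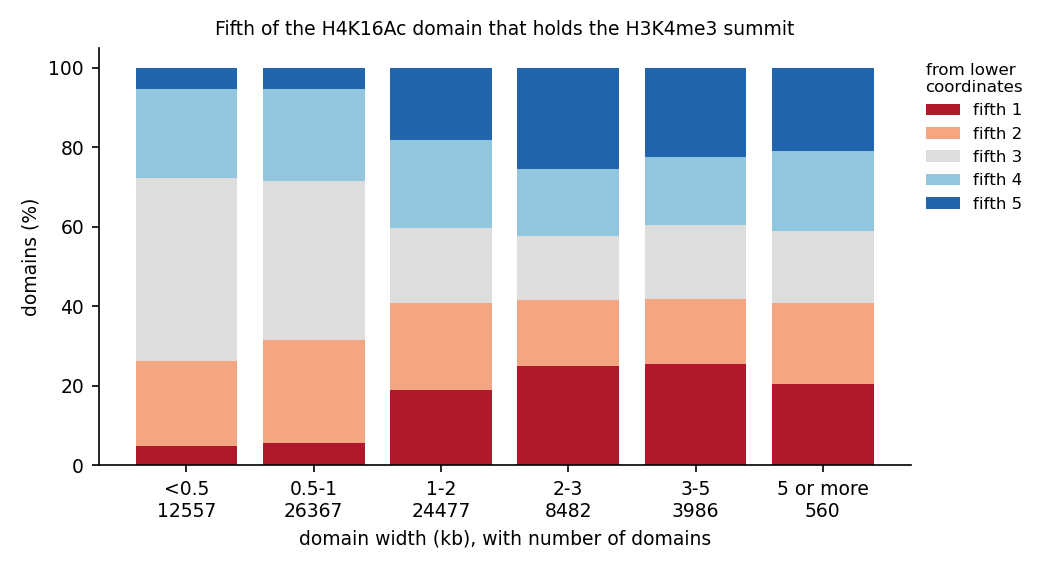
Share (%) of control H4K16Ac domains with exactly 1 H3K4me3 interval whose summit lies in each of 5 equal parts of the domain, from lower to higher coordinates, by domain width (kb; the number of domains stands below). The outermost parts, at the bottom and the top of each bar, together hold 10.2% of summits in the narrowest class and 50.5% at 2 to 3 kb.

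The position of the summit also differed between weak and strong H3K4me3. Among domains with 1 interval and a width from 1000 to under 2000 bp, the outermost parts held the summit in 51.8% of those with the weakest H3K4me3 and 6.63% of those with the strongest. In the latter the interval itself had a median width of 1228 bp, close to the domain's 1299 bp. Among domains of 2000 bp or more the share had no steady order. It was 47.5% in group 1, between that and 53.4% in groups 2 to 8, 44.0% in group 9 and 37.7% (95% CI 35.3 to 40.1) in group 10. Wide domains around the strongest H3K4me3, which held intervals of 1361 bp in the median, had a median longer reach of 1141 bp and a median shorter reach of 0 bp.

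The side of the longer arm was compared with the H3K4me3 interval itself, whose summit is often off centre too. The longer arm of the domain lay on the side of the longer arm of the interval in 63.4% of 83182 domains (95% CI 63.0 to 63.7). Both arms run from 1 summit, and where the domain passes the interval its arm includes that of the interval. Agreement above 50% was thus partly built in. The share was 56.1% in domains under 500 bp, 71.6% from 500 to 1000 bp and 64.6% from 1000 to 2000 bp. It was 55.3% from 2000 to 3000 bp, 53.9% from 3000 to 5000 bp and 49.8% from 5000 bp upward. The longer reach beyond the interval lay on the side of the longer interval arm in 46.9% of 76704 domains (95% CI 46.5 to 47.2), slightly more often on the side of the shorter arm. The reach is what the domain arm leaves beyond the interval arm, so a lean to the shorter arm was partly built in. At fixed distances from the summit, coverage was higher on the side of the longer H3K4me3 arm, but such a point can lie inside the interval on that side and outside it on the other, so these values hold the asymmetry of the interval itself. At 500 bp from the summit a domain was present on the side of the longer H3K4me3 arm for 44.1% of 112770 intervals and on the other side for 29.6%. In the strongest group these shares were 71.6% and 36.0%, a difference of 35.6 points, and at 1000 bp 23.8% and 11.2%. By 3000 bp they were 5.24% and 5.42%. For pan H4 they were 70.8% and 30.8% at 500 bp in the strongest group.

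The side of the longer arm was also looked up in the HFD list, around the same control summits. Since both arms are measured from 1 control summit, the lists are not independent in this. Where the control longer arm took 66.7% or more of its domain, the HFD domain was longer on the same side in 30211 of 35924 cases, or 84.1% (95% CI 83.7 to 84.5). Where the control domain was more even, it was 71.3%. In control domains of 2000 to 3000 bp the shares were 83.4% and 69.2%.

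Domains with H3K4me3 were wider than domains without. Their median width was 1059 bp (95% CI 1051 to 1067) against 516 bp (95% CI 512 to 519), a ratio of 2.05. Over chromosomes 1 to 20 and X the ratio ran from 1.89 on chromosome 2 to 2.23 on chromosome 19. Of all domains, 14.4% were 2000 bp wide or more. Of those with H3K4me3, 18285 were, or 21.3%, and of those without, 6764, or 7.71%. A width of 5000 bp or more was reached by 1088 domains with H3K4me3 and 183 without, which is 1.27% and 0.208%. At the other end, 48.4% of the domains without H3K4me3 and 15.8% of those with it were narrower than 500 bp. The width went with the number of intervals held, with medians of 974 bp for 1 interval, 2462 bp for 2, 3905.5 bp for 3 and 5816 bp for 4 or more. The domains with exactly 1 interval were 1.89 times as wide as those with none, but a wide domain is easier to touch in this set too.

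The difference in width was present at like enrichment as well. Domains with H3K4me3 had a median fold enrichment, averaged over the domain by the caller, of 3.51, and those without had 2.89. When all domains were ordered by fold enrichment into 10 groups, those with H3K4me3 were the wider in each, by a ratio of 1.66 in the group of highest enrichment, with medians of 830 and 501 bp, to 2.98 in group 4, with 1532 and 514 bp. Wide domains offer more room to an interval inside each group as well, so these ratios do not remove that. The widest domains were the least enriched. With H3K4me3, the median width was 2140 bp in the group of lowest enrichment, and only 30.8% of the domains of that group had H3K4me3. In the group of highest enrichment 89.9% had it.

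**Figure D4:**
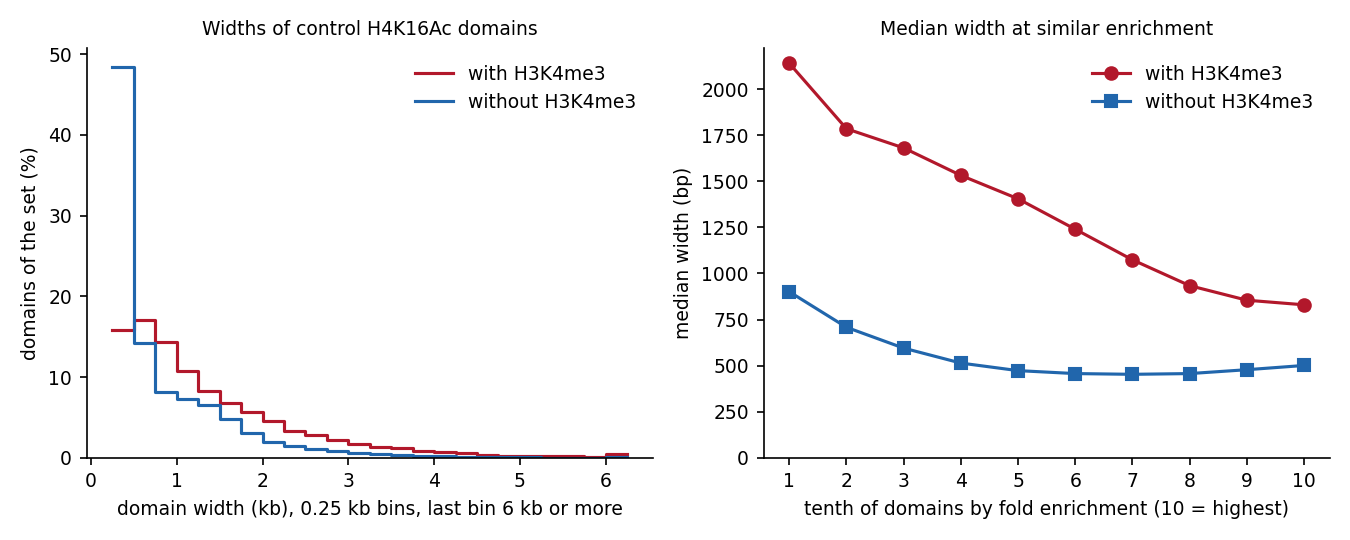
Left, share (%) of control H4K16Ac domains with and without H3K4me3 by width in bins of 0.25 kb, the last bin holding 6 kb or more. Right, median width (bp) of both sets in 10 groups by fold enrichment. Domains with H3K4me3 are wider in every group, with 830 against 501 bp in the group of highest enrichment.

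A wide domain has more bases that an interval can touch, and the overlap went with width. H3K4me3 was met by 24.2% of domains under 500 bp, 58.0% from 500 to 1000 bp, 58.8% from 1000 to 2000 bp, 69.9% from 2000 to 3000 bp, 77.1% from 3000 to 5000 bp and 85.6% of the 1271 domains of 5000 bp or more. A single base, the midpoint of the domain, does not offer more room in a wide domain, and by it the order was another. This measure has a trend of its own built in, as an interval covers a smaller part of a wide domain. Among domains that held a summit, the median interval was 383 bp in those under 500 bp and 487 bp in those of 5000 bp or more. The midpoint lay in an H3K4me3 interval in 23.0% of domains under 500 bp, in 52.3% from 500 to 1000 bp (95% CI 51.8 to 52.7), in 28.8% from 1000 to 2000 bp, in 20.1% from 2000 to 3000 bp, in 18.3% from 3000 to 5000 bp and in 12.4% (95% CI 10.7 to 14.3) of the widest class. Of all domains of a class, H3K4me3 covered the midpoint most often from 500 to 1000 bp. Among only the domains that met H3K4me3, it did so most often under 500 bp, with 12902 of 13567. From 500 to 1000 bp it was 24342 of 27036. Most of the widest domains met H3K4me3 but not at their centre, and their width alone favours both.

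The widest domains were of both kinds. The widest with H3K4me3 was chr10:45371743-45387510 with 15768 bp, the one with the longest reach, and held 3 intervals. It was followed by chr20:7149024-7161980 with 12957 bp and 2 intervals, chr4:126635162-126646947 with 11786 bp and 1 interval, and chr1:100894619-100906195 with 11577 bp and 2 intervals. Their fold enrichments were low, from 1.94 to 2.39. H3K4me3 covered between 2.75% and 14.8% of their length. HFD domains covered 64.2% of the chromosome 4 domain in 4 pieces and 38.9% of the chromosome 1 domain in 5 pieces, of which the widest was 1306 bp.

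The widest domains without control H3K4me3 were chr3:22022026-22031192 with 9167 bp, chr8:130022865-130031864 with 9000 bp, chr20:11204591-11213417 with 8827 bp and chr1:219996382-220004982 with 8601 bp. Each was found in the HFD list as 2 domains, covering between 69.7% and 81.2% of it. The HFD list of H3K4me3 held 1 interval in the first domain, 2 in the second and 3 in the fourth, covering 3.64%, 7.73% and 15.6% of them. The domain on chromosome 20 had none in either diet. H3K27me3 lay over 23.3% of the second and 15.2% of the fourth, and over none of the other two.

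The distance from domains without H3K4me3 to the nearest interval was then measured. The nearest interval was a median of 5747 bp away (quartiles 2873 and 13003 bp). It was nearer than 1000 bp for 2.75% of the domains without H3K4me3, nearer than 2500 bp for 20.8%, and 10000 bp or more away for 32.0%. Neighbouring domains never lay closer than 1194 bp, and 82.8% of intervals met a domain. The small share nearer than 1000 bp was thus partly set by the list itself. No expected distance was computed, so whether domains without H3K4me3 lay unusually near or far was not tested. In HFD, 24.5% of these domains met an H3K4me3 interval, and of the control domains with H3K4me3, 70.4% did.

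The 2 kinds of domain differed in what else was listed over them. H3K27me3 lay over 51.0% of the domains with H3K4me3 and over 8.71% of those without, whose median width was smaller. Pan H4 lay over 91.9% and 57.9%, and total H3 over 89.4% and 53.1%. The share of bases is less tied to width, and it was 30.8% and 5.08% for H3K27me3, 53.7% and 30.9% for pan H4 and 50.1% and 27.4% for total H3. Pan H4 and total H3 thus moved with the overlap of both marks, and their part in it was not tested.

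As a check of the domains in other libraries, 80.9% of all control domains met an HFD H4K16Ac domain by at least 1 bp. The share was 94.4% of those with H3K4me3 (95% CI 94.2 to 94.6) and 67.6% of those without (95% CI 67.3 to 67.9). In bases, which are less tied to width, HFD domains covered 68.6% of all control domains, 77.6% with H3K4me3 and 54.3% without. The share of domains met differed at like enrichment. In the group of lowest fold enrichment it was 88.9% and 59.9%, and in the group of highest 99.7% and 95.4%. At like width it was 80.5% and 56.7% under 500 bp, and 98.7% and 91.3% from 2000 to 3000 bp. Of the 183 domains without H3K4me3 of 5000 bp or more all 183 met an HFD domain, and of the 1088 with H3K4me3 all but 1.

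**Figure D5:**
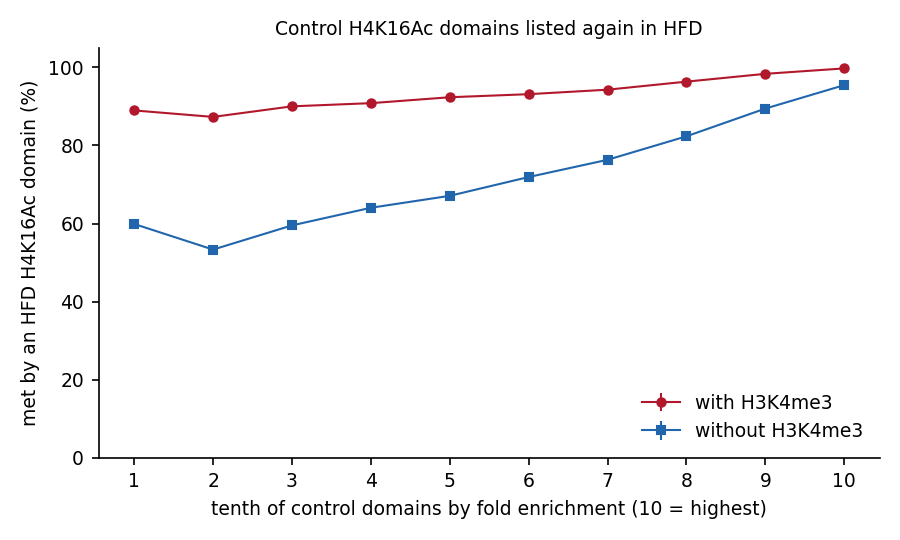
Share (%) of control H4K16Ac domains met by an HFD H4K16Ac domain by at least 1 bp, for domains with and without H3K4me3, in 10 groups by fold enrichment. The bars, mostly within the points, are 95% Wilson intervals. The shares are 88.9% and 59.9% in group 1 and 99.7% and 95.4% in group 10.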

How the data were processed

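ChIP-seq peak lists of control H4K16Ac and H3K4me3 were compared, with the control lists of pan H4, total H3 and H3K27me3 and the HFD lists of both marks beside them. Per the authors, bowtie2 served for alignment to rn6 and MACS2, with options described only as the recommended ones, for the peak lists. Versions, duplicate handling and use of an input are not given in the sources used here. Each deposited list gives a fold enrichment, a ratio to the local background, and the −log10 of the p-value and of the q-value, at the summit in narrow lists and averaged over the region in broad ones. Coordinates and summit offsets are the authors' own.

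Here, widths, overlaps of at least 1 bp, arms and reaches were computed in Python (3.11.15) with pandas (2.3.3), numpy (2.4.6) and scipy (1.17.1), plotted with matplotlib (3.10.9), and the interval functions were tested on simulated data. Pileup and background were solved from fold, (k + 1) / (b + 1), and the Poisson p. For the background of a list, its most frequent fold and the most frequent p at that fold were used. Replicates were pooled by the authors, so no test was made. Regions were named by rule: on chromosomes 1 to 20, X and Y, the 4 widest domains with and without H3K4me3, the 3 longest reaches, and the 3 H3K4me3 intervals of highest −log10 p inside and outside domains. The members, lists and rule were chosen with earlier results of these data known. Genes and sequences were not used here, as no rn6 reference was at hand. Alternatives were stricter thresholds, another overlap minimum, chromosomes only, lists of equal length, joined domains, HFD lists, midpoints for summits and domains with 1 interval. Control intervals against HFD domains were added after seeing the data.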

Additional observations from a re-analysis of the deposited data

How the results depend on the processing

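No paired analysis was possible because the 3 libraries of each antibody and diet share 1 list, and for the same reason no library could be left out. Of the 47 alternative values, 14 stayed inside the 95% CI of the reported value, which here is narrow, and in none were domains with H3K4me3 narrower than those without. With −log10 q of at least 5 in both lists, 59.9% of domains had H3K4me3 and 73.4% of intervals had a domain, 26.3% of bases lay outside, the median reach was 27 bp, the longer arm took 62.4% and the width ratio was 1.67. With lists of equal length these were 61.4%, 66.5%, 49.1%, 77 bp, 67.1% and 2.11. With at least 50% of the interval overlapped, 47.8% of domains and 79.8% of intervals counted, 54.6% of bases lay outside and the longer arm took 68.5%. In the HFD lists the first 5 values were 48.3%, 86.2%, 55.0%, 93 bp and 68.5%. Control intervals against HFD domains, added after seeing the data, gave 48.6%, 81.6%, 53.8%, 82 bp, 68.5% and 1.98. On chromosomes 1 to 20, X and Y, 55.2% of bases lay outside. In domains with 1 interval the values were 53.4% of bases, 68 bp, 67.6% and a ratio of 1.89. With the midpoint in place of the summit the longer arm took 65.2%. Joining domains less than 1000 bp apart changed nothing, as none lay that close. Its values are among the 14 but could not have moved. Among these alternatives, the reach and the bases outside the intervals depended most on the threshold of the lists. None of them used the same kind of peak for both marks.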
